A study of Arabidopsis thaliana with 9 samples.

Results

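Cytochromes P450 are monooxygenases that hold a haem group, and haem is made from 5-aminolevulinic acid (ALA). The probe sets described here are those whose single gene symbol has the P450 form, CYP followed by a family number, a subfamily letter and a gene number. This gave 23 probe sets for 23 genes, of 22746 probe sets tested on the ATH1 array, and all 23 genes matched RefSeq. A single gene is named for 13513 probe sets, while RefSeq holds 236 genes with symbols of this form, so most P450 genes of Arabidopsis thaliana were not analysed here and no statement below extends to them. Of the 23, 19 belong to the CYP71B subfamily. CYP51G2, CYP78A9, CYP79A2 and CYP84A4 are the others.

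Whole seedlings of Arabidopsis thaliana ecotype Col-0 were grown on MS medium for 3 days in darkness and then given 6 h of light. The groups, each of 3 arrays, were untreated wild-type Col-0, wild-type Col-0 with 10 µM gabaculine in the medium (GAB), and the untreated gun4-1 mutant, which is in the Col-0 background. GAB inactivates the aminotransferase that forms ALA, and GUN4 is a protein that binds porphyrins and stimulates the Mg chelatase of chlorophyll synthesis. The comparisons asked how transcript abundance of these haem enzymes stood when ALA formation was blocked by the inhibitor, and in a mutant for which the study describes a lowered ALA formation. Values are on the log2 scale, after the authors' robust multi-array averaging, so that a difference of 1 is a 2-fold change. To be called, a probe set needed an adjusted p of at most 0.05 in limma (Benjamini-Yekutieli, over all probe sets tested) and a fold change above 1.5 or below 0.667, the limits of the study's methods. GUN4 itself was not analysed here, so the genotype was not checked on the arrays.

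P450 enzymes bind haem through a cysteine, activate molecular oxygen and put one of its atoms into a substrate, with electrons that usually come from NADPH through a reductase in the endoplasmic reticulum. In plants they act in the synthesis of hormones, sterols, phenylpropanoids, cuticle lipids and defence compounds. The CYP71 family has many members that stand in tandem arrays of closely related genes, and CYP71B15 (PAD3), which is not among the genes measured here, makes the defence compound camalexin. CYP71B6 turns indole-3-acetonitrile, a breakdown product of indole glucosinolates, into indole-3-carbaldehyde and the corresponding acid. CYP79A2 forms phenylacetaldoxime from phenylalanine, the entry to benzylglucosinolate. CYP84A4 hydroxylates a phenylpropanoid aldehyde on the way to arabidopyrones, CYP78A9 promotes fruit and seed growth, and CYP71B31 oxidises the floral terpene alcohol linalool.

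The 23 genes were measured at very different signals. In CYP71B6, the brightest, the 9 arrays lay between 8.85 and 9.30, and in CYP71B16, the dimmest, between 2.86 and 3.08. For 11 of the 23 the highest group mean was below 4.55, the 30th percentile of all probe set means. These 11 dim ones are CYP71B16, CYP71B21, CYP71B22, CYP71B24, CYP71B25, CYP71B27, CYP71B30P, CYP71B31, CYP71B36, CYP71B38 and CYP79A2. Whether these transcripts were above background was not tested, and low array signals give compressed fold changes. RefSeq classes CYP51G2 and CYP71B27 as transcribed pseudogenes, and the P in CYP71B30P marks a pseudogene as well, although RefSeq lists that gene as protein-coding. All 23 probe set identifiers end in _at, the form given to sets designed for a single transcript, but cross-hybridization between related genes was not tested.

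**Figure D1:**
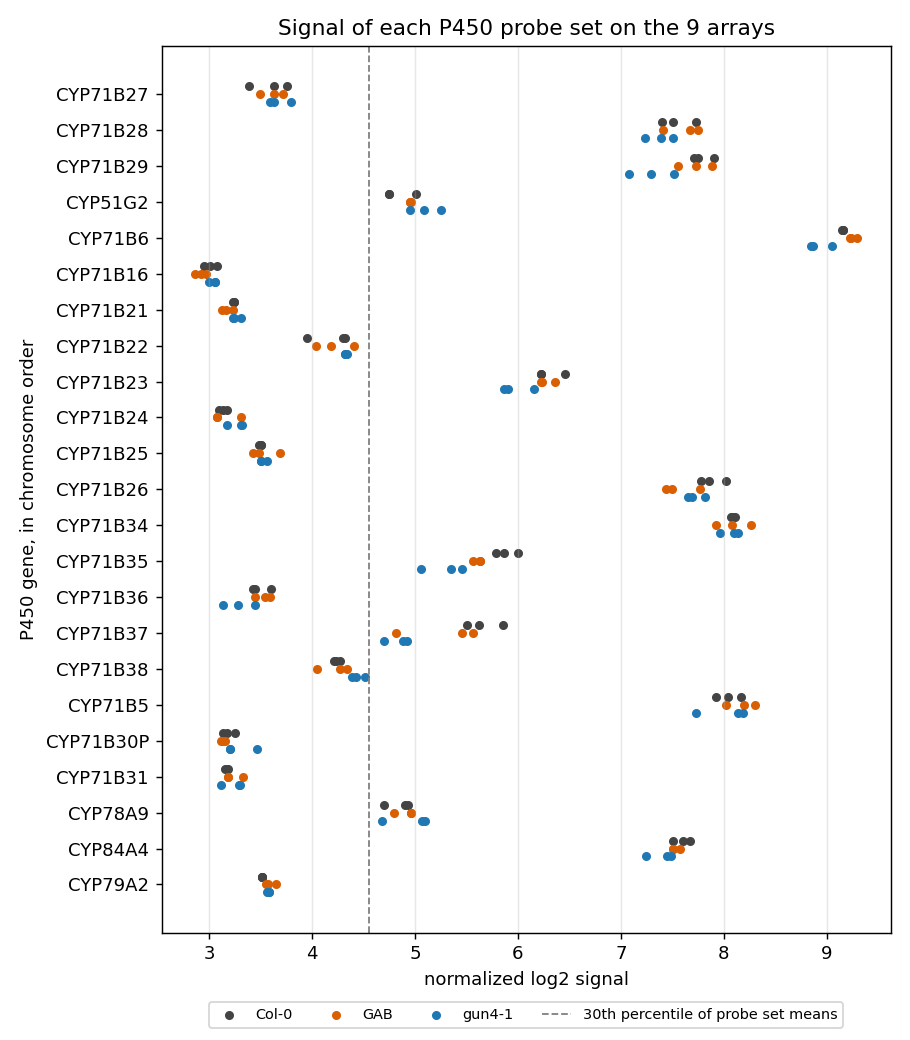
Normalized log2 signal (x axis) of each of the 23 P450 probe sets (y axis, in chromosome order) on the 9 arrays, with 3 points each for Col-0, GAB and gun4-1. The dashed line at 4.55 is the 30th percentile of all probe set means, and 11 probe sets have all group means to the left of it.

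In GAB-treated seedlings none of the 23 P450 probe sets was called higher or lower. Among all probe sets 1.46% were called, 0.769% higher and 0.690% lower. The log2 fold changes of the 23 ran from -0.38 (CYP71B37) to 0.13 (CYP71B5), with a median of 0.021, where all probe sets had a median of 0. Of the 23, 13 were above 0 (50.0% of all probe sets were). At an unadjusted p of at most 0.05 there were 3 of 23 (13.0%), against 19.7% of all probe sets. Student's t-test with equal variances and the same fold limits gave 0 as well. The study names a t-test only in a general statistical note, after a test of equal variances, while its method for the arrays is limma. For 22 of the 23 the 95% interval of the fold change lay inside both fold limits, the exception being CYP71B37, and this held for 90.3% of all probe sets. A change of more than 1.5-fold in measured signal was thus outside the interval for these 22, also for each of the 11 dim ones.

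Of the 23 P450 genes measured, CYP71B35 and CYP71B37 were lower in gun4-1, and none was higher. They fell to 0.660 and 0.564 of their level in Col-0. Of 22 alternative settings, CYP71B35 was still called in 14 and CYP71B37 in 10. With Benjamini-Hochberg adjustment or with no fold limit a call could not be lost, so these counts are not a survival rate. Neither gene passed after quantile normalization or with median-centred arrays. These 2 of 23 are 8.70%, beside 4.46% of all probe sets lower in gun4-1 and 2.44% higher (6.90% in all), a count too small to set the P450 genes apart. The log2 fold changes ran from -0.83 (CYP71B37) to 0.27 (CYP51G2), with a median of 0.020, against 0.025 over all probe sets. Of the 23, 12 were above 0, where 55.1% of all probe sets were. Split by signal, 10 of the 11 dim members were above 0, with a median of 0.065. Of the 12 others, which include both called genes, 10 were below 0, with a median of -0.18. All probe sets that were not dim had a median of -0.011. These are descriptions of the members, for which no test was made. The share below 0 was not computed for all probe sets that were not dim. Neither share nor median was computed for all dim ones. The split also varied with processing. After quantile normalization the dim CYP71B21, CYP71B25, CYP71B27 and CYP79A2 lay below 0 (-0.046 to -0.0026). The brighter CYP71B5 and CYP71B34 then lay just above 0. The median size of change, whatever its sign, was 0.14 for the P450 genes and 0.15 for all probe sets. An unadjusted p of at most 0.05 was reached by 9 of 23 (39.1%), against 35.3% of all. The interval lay inside both fold limits for 20 of the 23 (80.0% of all probe sets), the others being CYP71B29, CYP71B35 and CYP71B37. Both comparisons with Col-0 use the same 3 Col-0 arrays, so they are not independent of each other.

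Between gun4-1 and GAB-treated seedlings none of the 23 P450 genes differed past the limits. Of all probe sets 3.80% did, 1.32% higher and 2.48% lower in gun4-1. The log2 fold changes ran from -0.44 (CYP71B37) to 0.22 (CYP71B38), and 7 of 23 had an unadjusted p of at most 0.05 (30.4%, against 28.1% of all). Student's t-test with the same fold limits again gave 0. The arrays of these groups did not overlap for 8 of the 23, beside 29.8% of all probe sets, and 11 of the 23 log2 fold changes were above 0, beside 55.4%. The 12 members that were not dim had a median of -0.19, where all probe sets that were not dim had -0.0033. The interval lay inside both fold limits for 21 of the 23 (85.6% of all probe sets), the others being CYP71B29 and CYP71B37. Thus for none of the 23 was a difference between the inhibitor and the mutant shown.

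**Figure D2:**
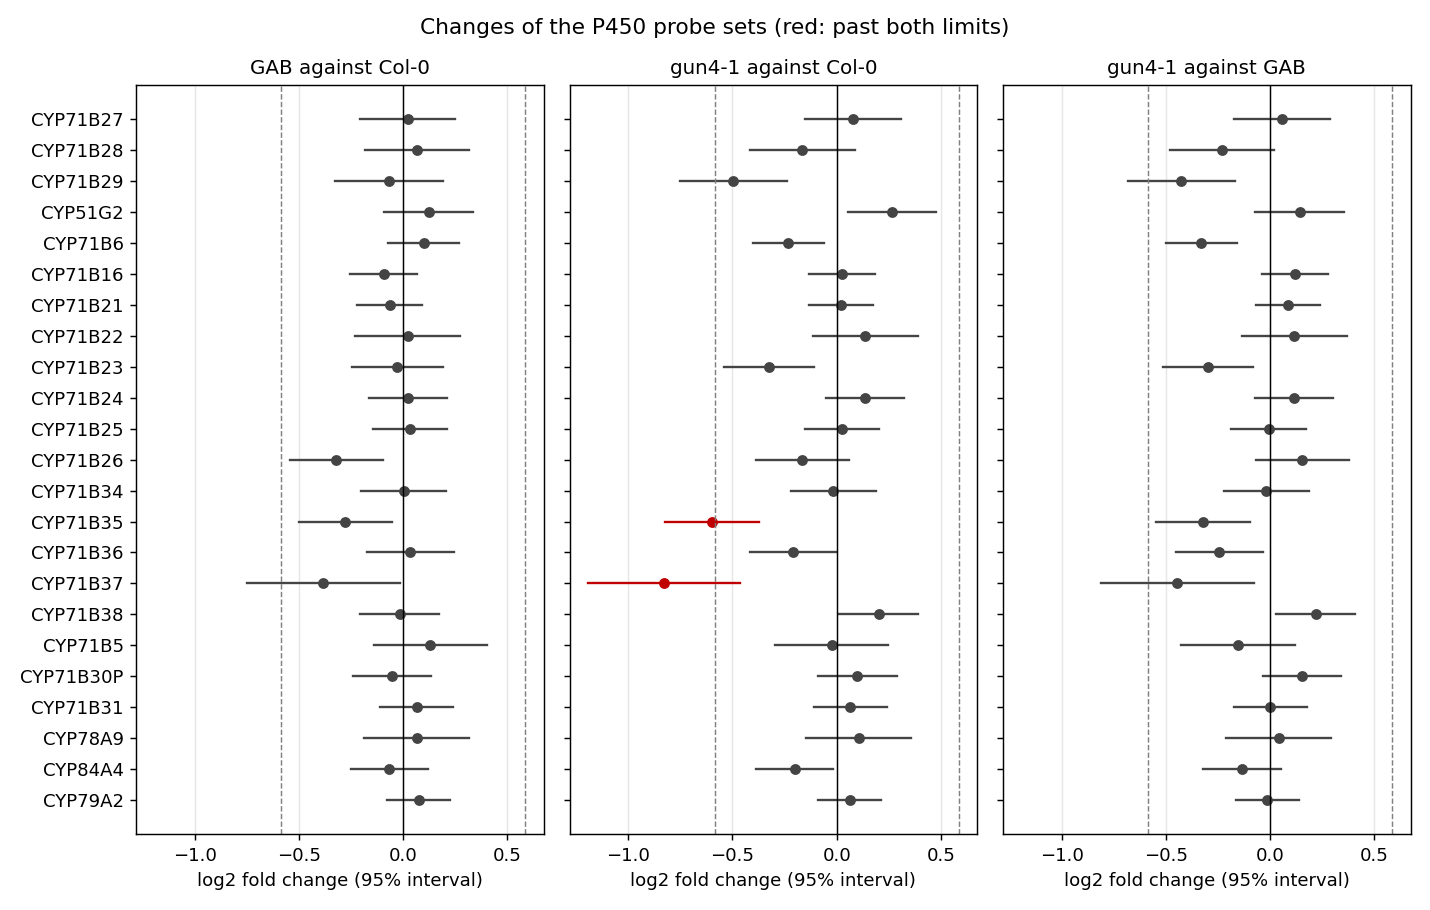
Log2 fold change with its 95% interval (x axis) of the 23 P450 probe sets (y axis) in the 3 comparisons, from limma with 3 arrays per group; dashed lines mark fold changes of 0.667 and 1.5. The 2 red points, CYP71B35 and CYP71B37 in gun4-1 against Col-0, passed both limits.

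CYP71B35 had log2 signals of 6.00, 5.87 and 5.79 on the Col-0 arrays, 5.63, 5.63 and 5.56 with GAB, and 5.06, 5.46 and 5.35 in gun4-1. The 3 groups did not overlap, with Col-0 highest, GAB between and gun4-1 lowest. Arrays without overlap against Col-0 were found for 4 of the 23 P450 genes with GAB, 2 above and 2 below, beside 24.0% of all probe sets (11.1% above and 12.9% below). In gun4-1 they were found for 8 of the 23, 2 above and 6 below, beside 36.0% (18.0% each way), so that separation of this kind was common. In gun4-1 the log2 fold change of CYP71B35 was -0.60 with a standard error of 0.10 (limma, 3 arrays in each group, adjusted p = 0.0133), just past the fold limit of -0.585. With GAB it was -0.28 with the same error (adjusted p = 1), and gun4-1 against GAB gave -0.32 (adjusted p = 0.619), neither of which passed. Without Col-0 replicate 1 or 2 the adjusted p in gun4-1 was 0.0754 or 0.0653, and without gun4-1 replicate 1 the log2 fold change was -0.48, below the size required.

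For CYP71B37 the Col-0 arrays had log2 signals of 5.85, 5.50 and 5.62, the GAB arrays 4.81, 5.46 and 5.56, and the gun4-1 arrays 4.88, 4.70 and 4.92. All gun4-1 arrays lay below all Col-0 arrays, while GAB replicate 1 stood with gun4-1 and the other two GAB arrays overlapped Col-0. The SD of 0.41 between GAB arrays was larger than that in Col-0 (0.18) and gun4-1 (0.12). The log2 fold change in gun4-1 was -0.83 with a standard error of 0.17 (limma, 3 arrays in each group, adjusted p = 0.0389), and with GAB it was -0.38 with the same error (adjusted p = 1). Without GAB replicate 1 the latter became -0.15, and CYP71B37 was then lower in gun4-1 than with GAB (-0.68, adjusted p = 0.0409), where all arrays together gave -0.44 (adjusted p = 1). The call in gun4-1 was lost when any array of the comparison was left out. Leaving out the Col-0 replicates 1, 2 and 3 in turn gave an adjusted p of 0.192, 0.0916 and 0.136 from limma. Leaving out those of gun4-1 gave 0.123, 0.160 and 0.108. Over the alternative settings the log2 fold change stayed between -0.90 and -0.73. GAB arrays enter through the shared estimate of the spread. Without GAB replicates 1, 2 and 3 in turn the adjusted p was 0.00251, 0.0551 and 0.0313. With only the 2 groups compared it was 0.00812.

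**Figure D3:**
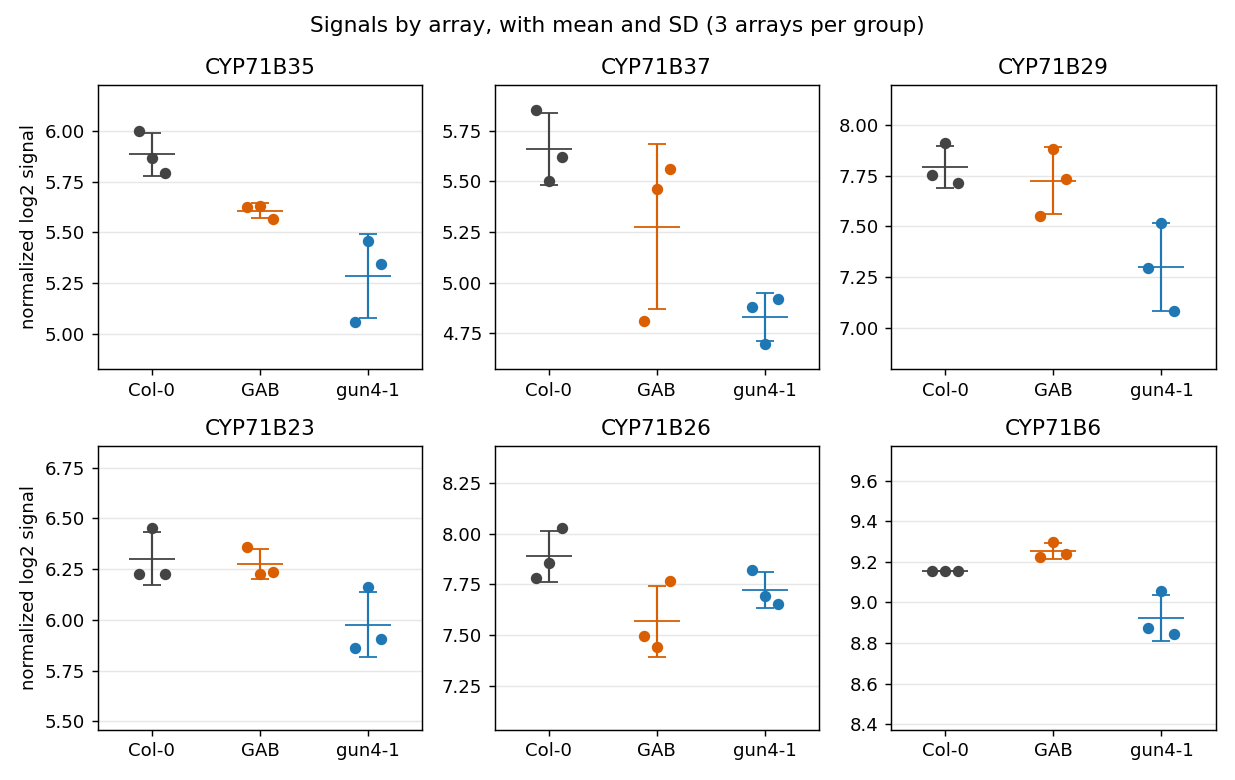
Normalized log2 signal (y axis, the same span in every panel) of 6 CYP71B genes on each array, with the mean and SD of the 3 arrays of a group. CYP71B35 steps down from Col-0 to GAB to gun4-1, 1 GAB array of CYP71B37 lies with gun4-1, and CYP71B6 has GAB above and gun4-1 below Col-0.

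CYP71B35 and CYP71B37 lie with CYP71B36 between them, and CYP71B34 comes directly before. With CYP71B25 and CYP71B26 these form a neighbourhood of 6 measured genes on chromosome 3, in which at most 2 genes of RefSeq lie between one and the next. CYP71B34 had log2 signals of 8.07, 8.08 and 8.11 in Col-0, 8.08, 7.92 and 8.26 with GAB, and 7.97, 8.14 and 8.10 in gun4-1. These overlap fully, and the 95% intervals of its log2 fold change were -0.20 to 0.21 with GAB and -0.22 to 0.19 in gun4-1, the latter outside the interval of its neighbour CYP71B35 (-0.82 to -0.37). CYP71B36 was dim and had 3.45, 3.60 and 3.43 in Col-0, 3.54, 3.44 and 3.59 with GAB, and 3.13, 3.28 and 3.45 in gun4-1, a log2 fold change of -0.21 in gun4-1 that did not pass (adjusted p = 1 from limma).

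CYP71B26, of the same neighbourhood, had its lowest signals with GAB. Its log2 signals were 7.78, 7.85 and 8.03 in Col-0, 7.50, 7.44 and 7.77 with GAB, and 7.82, 7.69 and 7.65 in gun4-1. All GAB arrays lay below all Col-0 arrays, although the highest GAB value and the lowest Col-0 value differed by little, and gun4-1 overlapped both. With an unadjusted p of 0.00873 it had the smallest p of the 23 in this comparison, and its log2 fold change of -0.32 ± 0.10 (SE, limma, adjusted p = 0.941) passed neither limit. CYP71B25, at the other end of the neighbourhood, was dim and had log2 fold changes of 0.032 with GAB and 0.026 in gun4-1. Over the 6 genes the median was -0.14 with GAB and -0.19 in gun4-1. With GAB 3 of the 6 were below 0 and 3 above, where 50.0% of all probe sets were above. In gun4-1 5 of the 6 were below 0, where 55.1% of all probe sets were above. The 2 called lower there stand beside 4.46% of all probe sets. This neighbourhood is described because it holds them.

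The other neighbourhoods held 3 genes on chromosome 1 (CYP71B27 to CYP71B29), 4 on chromosome 3 (CYP71B21 to CYP71B24) and 3 on chromosome 3 (CYP71B5 to CYP71B31), and no gene in them was called. In each of the first 2, 1 gene had gun4-1 arrays below all others. CYP71B29 had log2 signals of 7.75, 7.91 and 7.71 in Col-0, 7.55, 7.88 and 7.73 with GAB, and 7.29, 7.52 and 7.08 in gun4-1. Its log2 fold change in gun4-1, -0.49 ± 0.12 (SE, limma, adjusted p = 0.105), was the largest that was not called, and without gun4-1 replicate 2 it passed (-0.60, adjusted p = 0.0376). CYP71B23 had 6.23, 6.45 and 6.23 in Col-0, 6.36, 6.23 and 6.24 with GAB, and 5.86, 6.16 and 5.91 in gun4-1, a log2 fold change of -0.33 ± 0.099 (SE, adjusted p = 0.361). In the third, CYP71B5 had 8.17, 7.92 and 8.04 in Col-0, 8.20, 8.02 and 8.31 with GAB, and 8.14, 7.73 and 8.19 in gun4-1, so that all groups overlapped. Beside CYP71B29, CYP71B28 had log2 fold changes of 0.066 with GAB and -0.17 in gun4-1 and overlapped Col-0 in both.

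**Figure D4:**
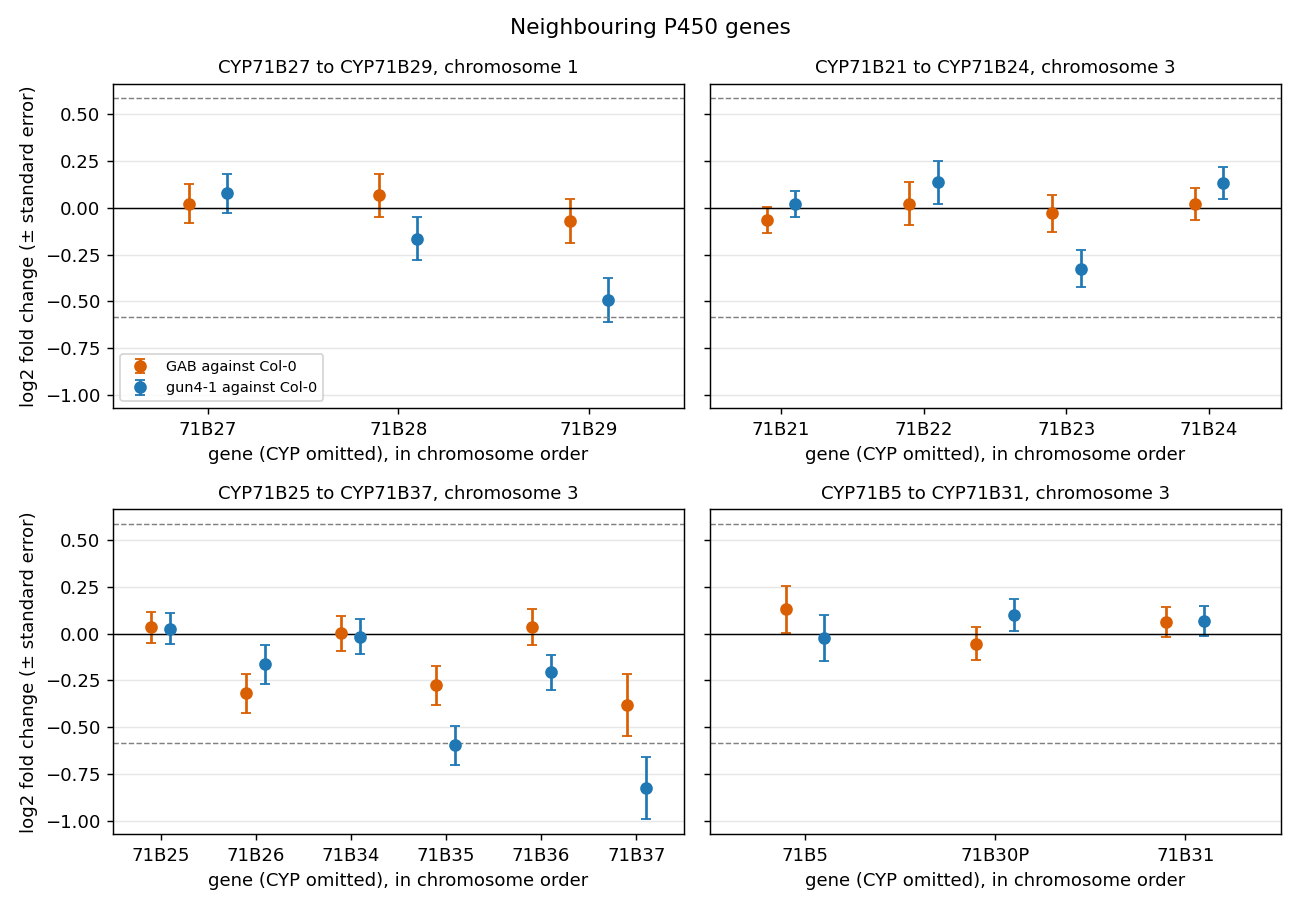
Log2 fold change with its standard error (y axis) against Col-0 for the 16 P450 genes that lie in 4 neighbourhoods, in chromosome order (x axis), for GAB and gun4-1; dashed lines mark fold changes of 0.667 and 1.5. In each of the top panels 1 gene (CYP71B29, CYP71B23) stands lower in gun4-1 than the rest, and CYP71B35 and CYP71B37 lie past the lower line while CYP71B34 and CYP71B25 lie near 0.

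Among the members with a known role, CYP71B6 had log2 signals of 9.16, 9.15 and 9.16 in Col-0, 9.22, 9.30 and 9.24 with GAB, and 8.87, 9.06 and 8.85 in gun4-1. Every GAB array was above and every gun4-1 array below the Col-0 arrays. The log2 fold changes were 0.099 and -0.23 (standard error 0.078 in each), and gun4-1 against GAB gave -0.33 (adjusted p = 0.154 from limma), none of which passed. The Col-0 SD of 0.0017 rests partly on a value that occurs more than once, as the summary by robust multi-array average gives equal values on several arrays for 14 of the 23 P450 probe sets.

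CYP84A4 had log2 signals of 7.51, 7.61 and 7.67 in Col-0, 7.58, 7.51 and 7.51 with GAB, and 7.49, 7.45 and 7.25 in gun4-1, where all arrays were below Col-0 and the log2 fold change of -0.20 did not pass (adjusted p = 1 from limma). CYP79A2 was dim, with 3.51 on each Col-0 array, 3.57, 3.55 and 3.65 with GAB, and 3.56, 3.58 and 3.58 in gun4-1. Both groups lay above Col-0 by less than 0.1 on the log2 scale (0.075 and 0.062). CYP78A9 had 4.69, 4.93 and 4.90 in Col-0, 4.96, 4.96 and 4.79 with GAB, and 5.07, 4.68 and 5.09 in gun4-1, with overlap throughout. CYP71B31 was dim, with log2 fold changes of 0.064 and 0.065.

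The 2 members with the highest log2 fold changes in gun4-1 were CYP51G2 and CYP71B38, of which neither passed. CYP51G2, a pseudogene related to the sterol 14-demethylase genes, had log2 signals of 5.00, 4.74 and 4.75 in Col-0, 4.95, 4.95 and 4.96 with GAB, and 5.25, 4.95 and 5.08 in gun4-1. Its gun4-1 arrays overlapped those of Col-0 (log2 fold change 0.27 ± 0.098, SE, limma, adjusted p = 0.751). CYP71B38 was dim and had 4.27, 4.23 and 4.21 in Col-0, 4.34, 4.05 and 4.27 with GAB, and 4.42, 4.39 and 4.51 in gun4-1, where all arrays were above the others (log2 fold change 0.20, adjusted p = 1). The other dim genes, CYP71B16, CYP71B21, CYP71B22, CYP71B24, CYP71B27 and CYP71B30P, lay between -0.095 and 0.021 with GAB and between 0.020 and 0.14 in gun4-1.

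Of 99 listed P450 names with a known role, in 12 role lists, 5 have a named probe set, those of CYP71B6, CYP71B31, CYP78A9, CYP79A2 and CYP84A4. The P450 lists for brassinosteroid, gibberellin, abscisic acid, jasmonate, cytokinin and strigolactone, cuticle lipid, sterol and carotenoid genes have none, and neither have the lists of the haem branch and of the reductases and cytochromes b5 that pass electrons to P450 enzymes. Of 18 listed other haem enzymes 2 were measured, and neither passed in any comparison. The ascorbate peroxidase genes SAPX and TAPX, whose haem proteins remove hydrogen peroxide in chloroplasts, had log2 fold changes of -0.18 and 0.094 with GAB and -0.18 and -0.36 in gun4-1 (adjusted p = 1 and 0.208 from limma in gun4-1).

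Array medians lay between 6.41 and 6.57, and arrays of a group correlated at 0.996 to 0.997 across probe sets. The medians differed between groups. Centring arrays on them moved the median log2 fold change of all probe sets from 0.025 to 0.123 in gun4-1. With GAB it moved from 0 to 0.040. CYP71B35 and CYP71B37 were not called after this centring. The median SD of the P450 probe sets was 0.0957 in Col-0, 0.0963 with GAB and 0.114 in gun4-1, where all probe sets had 0.0969, 0.0950 and 0.113. In whole seedlings, fewer cells of a type and less RNA per cell cannot be told apart. Of 12 listed markers of epidermis and guard cells 3 were measured, all regulators of the guard cell lineage (SPCH, MUTE and FAMA). None passed both limits, and their summed linear signal was 108 to 129 in Col-0, 96.1 to 119 with GAB and 87.5 to 92.3 in gun4-1, where CYP71B35 and CYP71B37 were lower too. SPCH had a log2 fold change of -0.54 in gun4-1 (adjusted p = 0.0382 from limma) and was the nearest to the fold limit. FAMA had -0.33 there and MUTE -0.0065, so the 3 were not lower alike. Of 21 root markers 2 were measured, EXPA7 and EXPA18 of root hairs, with a summed signal of 84.4 to 108 in Col-0, 61.8 to 78.8 with GAB and 104 to 142 in gun4-1. EXPA7 was higher in gun4-1 than with GAB (0.85, adjusted p = 0.0149). Neither EXPA7 in the other comparisons nor EXPA18 in any passed. Of the markers of shoot meristem (CLV3), seed (PAP85) and flower (AMS) 1 each was measured, and none passed. PAP85 had log2 fold changes of -0.59 with GAB, 0.58 in gun4-1 and 1.17 in gun4-1 against GAB. Its standard error was large (0.39), and its linear signal ran from 253 to 777 in Col-0 alone. The part of these markers in the P450 results was not tested. No mesophyll marker on the list has a named probe set, so the tissue label was not checked with it.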

How the data were processed

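Total RNA of whole seedlings was hybridized to 9 ATH1 arrays, 3 of each group, which were grouped by their titles. The authors deposited 1 log2 value per probe set and array, normalized by robust multi-array averaging. Affymetrix Expression Console is named without a version in the submitters' processing notes. One limma fit (3.58.1, R 4.3.3) of the 3 groups covered 22746 probe sets, without the 64 controls, with 6 residual and 5.91 prior degrees of freedom. Fold limits and Benjamini-Yekutieli adjustment follow the study's methods. Intervals are 95% intervals of single probe sets, without adjustment. A two-sided exact permutation test of 3 arrays against 3 has a smallest p of 0.1 and was left out. The study's general statistical note describes every experiment as repeated independently, 3 to 6 times, without naming the arrays or their cultures. Separate cultures for the arrays of a group are not stated in any source. The p-values therefore measure the spread between these arrays, whose number limits the precision.

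Gene names come from GEO's annotation of the array, updated through RefSeq (TAIR10.1), which served for names and gene order only. It gives several genes for 503 of the tested probe sets and no name for 8730. FDH on the array is formate dehydrogenase and CYP51A1 an old name of the pseudogene CYP51G2, so neither was matched to a probe set. Both names still count among those listed. Neighbourhoods are P450 genes with at most 2 protein-coding genes or pseudogenes between them. Named with values were the called P450 genes, their neighbourhood, up to 4 members per role list, and those nearest the limits; further members are named to account for all 23. The members and lists were chosen with earlier results of these data known. The fit was tested on simulated data. Results were recomputed with other adjustments, fold limits, normalizations and variance models, array weights, only the groups compared, and without dim or less specific probe sets. They were also recomputed with replicate numbers as a block, with Student's t-test and without each array in turn. No sequences were used here.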

Additional observations from a re-analysis of the deposited data

Results flagged for a closer look

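CYP71B6 was set apart because every GAB array was above and every gun4-1 array below all Col-0 arrays. Among all probe sets 11.1% had every GAB array above, and 18.0% every gun4-1 array below. The share with both was not computed. The Col-0 arrays of CYP71B6 had an SD of only 0.0017, so small shifts separate the groups. The log2 fold changes against Col-0 were 0.099 and -0.23. Set against GAB, gun4-1 was at -0.33 ± 0.078 (SE, limma, 3 arrays in each group, adjusted p = 0.154), which did not pass. Over the alternatives this value ran from -0.40 to -0.27 and was never called.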

How the results depend on the processing

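With GAB none of the 23 P450 genes was called under any of the 22 alternatives. In gun4-1 none was higher under any of them. The 2 lower P450 genes became 0 with a 2-fold limit, 0 after quantile normalization and 0 with median-centred arrays. With array weights only CYP71B35 was left (CYP71B37 had an adjusted p of 0.0698 from limma). With only the 2 groups compared just CYP71B37 was left (CYP71B35 had an adjusted p of 0.0598 from limma). Student's t-test with Benjamini-Hochberg adjustment also left just CYP71B37 (CYP71B35 had an adjusted p of 0.0836). With each array left out in turn the count ran from 0 to 2. In gun4-1 against GAB it was 0 under all alternatives except that the count ran from 0 to 1 with each array left out. CYP71B35 was called in 14 of the 22 (log2 fold change -0.68 to -0.48) and CYP71B37 in 10 (-0.90 to -0.73), always below 0. The 22 include laxer settings, such as no fold limit, that could not lose a call. After quantile normalization CYP71B35 had -0.52 and CYP71B37 an adjusted p of 0.0541, and with centred arrays they had -0.50 and 0.0791. Centring also moved the share of lower among all calls in gun4-1 from 64.6% to 47.2%, and with GAB from 47.3% to 37.1%. Fold changes changed sign in 55 of 1485 values compared, of which none was called and none was over 0.0781 in size before. Settings that alter only the adjustment, the fold limits, the variance model or the probe sets tested leave fold changes as they were. Such settings could show no change of sign, so 55 of 1485 is not a rate of stability. Leaving out dim probe sets left 12 of the 23 to test, with the same 2 called, and moved the members' median log2 fold change from 0.020 to -0.18 in gun4-1 against Col-0 and from -0.0066 to -0.19 in gun4-1 against GAB (all probe sets left: -0.011 and -0.0033). When replicate numbers entered as a block, 1 P450 was lower in gun4-1, CYP71B35, and CYP71B37 had an adjusted p of 0.0532. Deviations of same-numbered arrays correlated between -0.067 and 0.265, and those of other pairs between -0.335 and 0.187. Not every array correlated best with its own number. These overlapping ranges cannot show whether same-numbered arrays share a batch. The causes were not tested. For the 11 dim P450 genes the signal limits what a fold change shows.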
